A study of Mus musculus with 2 samples.

Results

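The set comprised 37 of the 27998 genes counted in 2 single-cell libraries of mouse inter-limb somites, and its members were taken by gene symbol. It held 7 Bmp-type ligands, 7 ligands of the activin, Gdf and Tgf-beta type, the protease Bmp1, 6 antagonists, the pseudoreceptor Bambi, 5 type I and 4 type II receptors, the inhibitory Smads Smad6 and Smad7, and the 4 Id genes as targets. The embryos were wild type C57BL/6 mice at embryonic day 9.5 (E9.5) or 11.5 (E11.5), with no treatment and no transgene. Somites of 3 embryos were pooled into 1 10x Genomics library at each age, so no library had a replicate, the age cannot be told apart from the library, and no test was made. After the filters on genes and mitochondrial UMIs, the E9.5 library kept 9851 cells and the E11.5 library 9595, with medians of 12462 and 12479 UMIs (unique molecular identifiers, each counting 1 captured RNA molecule). Of the barcode sequences of these cells, 25 occurred in both libraries.

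Ligands of this superfamily bind a complex of type I and type II serine/threonine kinase receptors, which phosphorylate receptor Smads that enter the nucleus with Smad4. Bmp ligands act through Smad1, Smad5 and Smad9 and switch on the Id genes, whose products hold back the basic helix-loop-helix factors of muscle, and activins, Mstn and Tgf-beta act through Smad2 and Smad3. In the somite, Bmp signals from the lateral mesoderm and the dorsal neural tube and the antagonists Noggin, Gremlin and Follistatin are known to set where and when muscle forms.

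A level is given as UMIs of a gene per 1000000 UMIs of a class of cells (UPM), with its exact 95% Poisson interval in parentheses. Such intervals, and those of log2 ratios between classes, cover counting error only and say nothing about embryos. A gene with at least 100 UMIs in the classes compared counted as higher or lower where its ratio passed 2-fold, and the share of all genes doing so is given beside the first count. Levels of different genes were not compared with each other. Cells were assigned to tissues by fixed marker lists, and each class is named as like its tissue. The gate took 6287 cells of the E9.5 library and 4533 of the E11.5 library, and 13 and 14 classes had at least 50 cells. No member was a marker. In the muscle-like, sclerotome-like and neural tube progenitor-like classes, all markers found in the files were detected at both stages, and 11 of 12, 8 of 8 and 9 of 9 of them were higher than in the other cells at E9.5. The muscle-like class went from 547 cells in the E9.5 library to 1339 in the later one. At E11.5, 1 of the 12 muscle markers and 1 of the 6 dorsal dermal markers were among the 10 leading genes of their class, the muscle-like class being led by sarcomere genes such as Ttn and Actc1, and 8 of 9 lateral plate markers were detected at E11.5. The sclerotome-like class had 4 of its own markers among its 10 leading genes at E11.5, beside Col2a1 and Col9a1 of the cartilage list and Foxf1 of the lateral plate list. At E9.5 its 10 leading genes held 3 of its own markers and 0 of any other list. The lateral plate-like class had 6 of its own markers among its 10 leading genes at E9.5 and 4 at E11.5. Of its 9 markers, 9 and 7 were higher than in the other cells. The intermediate mesoderm-like class had 5 and 2 of its own among its leading genes, in 405 and 99 cells. The part of these differences in the stage ratios of these classes below was not tested.

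Besides Fst, whose promoter was not available, Mstn, Tgfb2, Grem1 and Id2 were among the members past 2-fold between stages in muscle-like cells. Mstn, Tgfb2, Grem1 and Id2 are also described over the muscle steps below, where Tgfb2 stayed within 2-fold at E11.5. Their 250 bases before the RefSeq start, chosen after levels were seen, are shown to place the 2 kinds of short motif that factors of this system are known to bind (RefSeq, GRCm38.p6). Capitals in Mstn (chr1:53061390-53061639, plus strand) and Tgfb2 (chr1:186705990-186706239, minus strand) mark the E-box CANNTG, read by basic helix-loop-helix factors, and capitals in Id2 (chr12:25096093-25096342, minus strand) and Grem1 (chr2:113758649-113758898, minus strand) mark GGCGCC, a GC-rich motif of Smad1 and Smad5. Both motifs read the same on either strand.
Mstn: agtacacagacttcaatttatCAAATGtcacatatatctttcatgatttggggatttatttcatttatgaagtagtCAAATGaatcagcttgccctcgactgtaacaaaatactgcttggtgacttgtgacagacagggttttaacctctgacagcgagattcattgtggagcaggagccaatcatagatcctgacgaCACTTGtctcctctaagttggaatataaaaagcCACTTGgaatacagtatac
Tgfb2: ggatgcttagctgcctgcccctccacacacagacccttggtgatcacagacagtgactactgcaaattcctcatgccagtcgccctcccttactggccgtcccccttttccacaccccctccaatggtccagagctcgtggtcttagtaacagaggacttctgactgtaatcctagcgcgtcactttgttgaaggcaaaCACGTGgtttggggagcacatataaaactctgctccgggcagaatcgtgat
Id2: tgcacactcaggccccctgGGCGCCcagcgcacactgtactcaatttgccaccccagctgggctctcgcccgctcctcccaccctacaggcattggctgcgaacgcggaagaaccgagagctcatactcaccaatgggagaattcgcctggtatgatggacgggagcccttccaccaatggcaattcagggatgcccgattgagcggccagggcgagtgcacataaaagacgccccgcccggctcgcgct
Grem1: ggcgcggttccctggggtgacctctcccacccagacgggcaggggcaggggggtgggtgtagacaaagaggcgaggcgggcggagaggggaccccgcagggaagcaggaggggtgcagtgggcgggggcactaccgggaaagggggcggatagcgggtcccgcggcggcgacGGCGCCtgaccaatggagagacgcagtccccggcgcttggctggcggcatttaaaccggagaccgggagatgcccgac
The 4 E-boxes of Mstn began 229, 174, 52 and 19 bases before the start, and the single one of Tgfb2 51 bases before it. The Id2 window also held 1 E-box, CAGCTG, which is left in lower case. GGCGCC began 231 bases before the start of Id2 and 78 bases before that of Grem1. Over 32851 promoter windows of this length, 66.2% held CANNTG and 9.59% held GGCGCC. Promoters were matched for 26 members in 29 windows, of which 10 held CANNTG and 7 held GGCGCC (Bmpr1a, Bmpr2, Chrd, Grem1, Id2, Id4 and Tgfbr1). CAGCTG, the E-box form preferred by myogenic basic helix-loop-helix factors, was in 3 of the 29 (Bmpr1b, Gdf11 and Id2). It was in 13.0% of all windows, and in neither that of Mstn nor that of Tgfb2. These are matches of letters, and no binding was measured.

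Taken over all cells, 10 of the 14 ligands were over 2-fold higher in the E11.5 library, while of the 9 receptors 4 were higher (Bmpr1b, Acvr1, Bmpr2 and Tgfbr2) and Acvr2b was lower. Of the 37 members, 35 had at least 100 UMIs, 19 were over 2-fold higher at E11.5 and 2 were lower, against 20.6% of all genes higher and 4.72% lower. The median log2 ratio was 1.03 over these members and 0.21 over all genes with at least 100 UMIs, and 17 members were higher and 2 lower once the ratios were centred on the median gene. The shares of all genes given here are of ratios that were not centred, so the centred counts have no share to set beside them. Bmp6 and Inhbb stayed under 100 UMIs, with 2 and 7 UMIs of Bmp6 and 23 and 68 of Inhbb in the earlier and later library. Since the libraries held tissues in different proportions, the stages are compared within tissues below, and all-cell values are given only for members too scarce within 1 tissue.

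**Figure D1:**
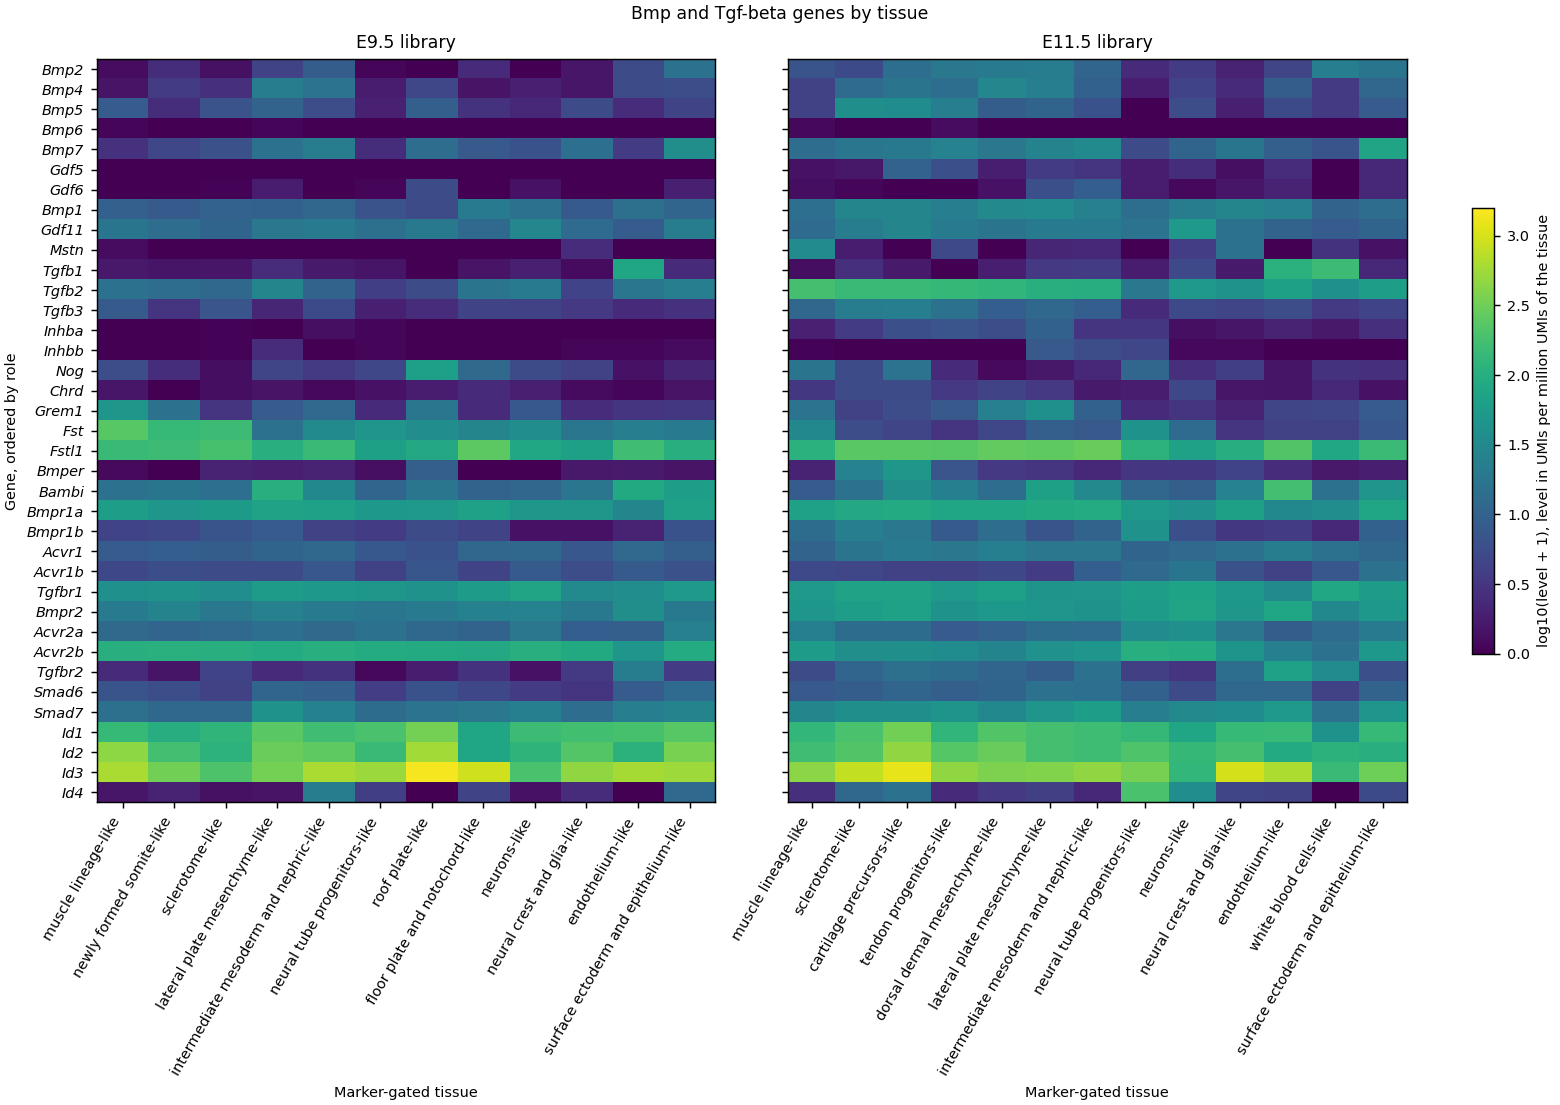
Levels of the 37 genes, ordered by role, in each marker-gated tissue of the E9.5 and E11.5 libraries, without red blood cells; color gives log10 of the level plus 1, with the level in UMIs per 1000000 UMIs of the tissue. Nog was brightest in the E9.5 roof plate (62.1 UPM), Tgfb1 in the E9.5 endothelium (74.9) and E11.5 white blood cells (157), and Id4 in the E11.5 neural tube progenitors (193).

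Bmp2, Bmp4 and Bmp7 had their highest levels outside the muscle-like cells at both stages. Bmp5 was less confined at E9.5. Its highest level was 9.48 UPM in lateral plate-like cells, with roof plate-like cells next at 8.44 and overlapping intervals. The median over tissues was 3.52, and muscle-like cells were above that median. At E9.5, Bmp4, a ligand that lateralizes the somite, was at 21.1 UPM in lateral plate-like and 15.4 in intermediate mesoderm-like cells, and at 0.47 in muscle-like cells. Bmp2 was highest in the surface ectoderm-like class (15.2 UPM, next 7.69 in intermediate mesoderm-like cells). Bmp7, which the nephric duct and ectoderm are known to make, was also highest there, at 37.3 UPM in the E9.5 and 73.5 in the E11.5 library. The counting intervals of the highest and the next tissue did not overlap for Bmp2 and Bmp7 at E9.5, and overlapped for Bmp4. Of 29 members with at least 100 UMIs over the E9.5 tissues, 14 stood apart from the next tissue in this sense (18.4% of all genes) and 10 had a highest level at least 4 times the median tissue (14.7%). At E11.5 these counts were 15 and 14 of 33 (26.0% and 22.3% of all genes).

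The somite-derived classes themselves held Bmp transcripts in both libraries. Bmp4 was at 12.3 UPM in sclerotome-like cells against 1.79 at E9.5 (log2 ratio 2.78, 2.09 to 3.51), and Bmp5 at 37.7 against 5.53 (2.77, 2.38 to 3.17). Bmp5 went the other way in muscle-like cells, at 7.64 UPM at E9.5 and 3.28 at E11.5 (-1.22, -1.68 to -0.75). Bmp7 was higher in both, at 17.3 against 5.22 UPM in sclerotome-like cells (1.73, 1.28 to 2.18) and 13.1 against 1.89 in muscle-like cells (2.80, 2.14 to 3.53). Bmp2 rested on 3 UMIs in the E9.5 muscle-like cells, at 0.28 UPM, and was at 5.69 in those of E11.5 (4.33, 2.75 to 6.63). Within the E11.5 library, Bmp4 (log2 ratio 1.88, 1.42 to 2.35) and Bmp5 (3.52, 3.15 to 3.91) were higher in sclerotome-like than in muscle-like cells. Ligands of joints and skeleton were scarce. Gdf5 had 1 UMI at E9.5 and 2.26 UPM at E11.5, where it was highest in cartilage precursor-like cells at 9.02. Tendon progenitor-like cells were next for Gdf5 at 5.00, with overlapping intervals. Gdf6 went from 0.22 to 0.96 UPM over all cells and was at 8.17 in the E11.5 intermediate mesoderm-like cells. Lateral plate-like cells were next for Gdf6 at 5.12, also with overlapping intervals. Over the E11.5 tissues Gdf5 had 93 UMIs and Gdf6 51. Bmp1, the astacin protease that cleaves procollagen and Chordin, was at 28.8 UPM in E11.5 sclerotome-like cells and 9.11 in those of E9.5 (1.66, 1.32 to 2.00).

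Among the ligands of the Tgf-beta branch, Tgfb2 was higher at E11.5 in many tissues. It was at 178 UPM in E11.5 muscle-like cells and 14.4 in those of E9.5 (log2 ratio 3.63, 3.39 to 3.87), and at 147 against 11.1 in sclerotome-like cells (3.73, 3.47 to 3.99). The ratio passed 2-fold in each of the 9 tissues in which it had at least 100 UMIs over both stages, from 1.42 in neuron-like to 3.73 in sclerotome-like cells. Tgfb3 was at 21.7 against 6.00 UPM in sclerotome-like cells (1.85, 1.44 to 2.27) and stayed within 2-fold in muscle-like cells as a whole (10.5 against 7.07). Tgfb1, the form known from blood and vessels, was at 74.9 UPM in E9.5 endothelium-like cells, with red blood cell-like cells next at 9.85, and at 157 in white blood cell-like and 110 in endothelium-like cells at E11.5. Mstn, the inhibitor of muscle growth, had 18 UMIs in the whole E9.5 library, 3 of them in muscle-like and 14 in neural crest-like cells, and was at 34.2 UPM in the muscle-like cells of E11.5 (6.92, 5.37 to 9.20). Sarcomere cells, the muscle step described below with the highest Mstn at E11.5, numbered 6 at E9.5 and 286 at E11.5. The part of this mix of steps in the stage ratios of muscle-like cells, that of Mstn among them, was not tested. Neural crest-like cells were the next highest for Mstn at E11.5, at 14.6 UPM. Gdf11, which patterns the trunk axis, was highest in neuron-like cells at both stages (29.4 and 53.4 UPM). At E9.5 their interval overlapped that of the next tissue, the surface ectoderm-like cells at 21.6. In sclerotome-like cells Gdf11 was at 21.0 against 9.66 UPM (1.12, 0.76 to 1.48). Inhba, an activin subunit, went from 0.06 to 3.28 UPM over all cells, and its highest tissue at E11.5 was the lateral plate-like class at 8.74. Tendon progenitor-like cells were next at 5.88, with overlapping intervals.

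**Figure D2:**
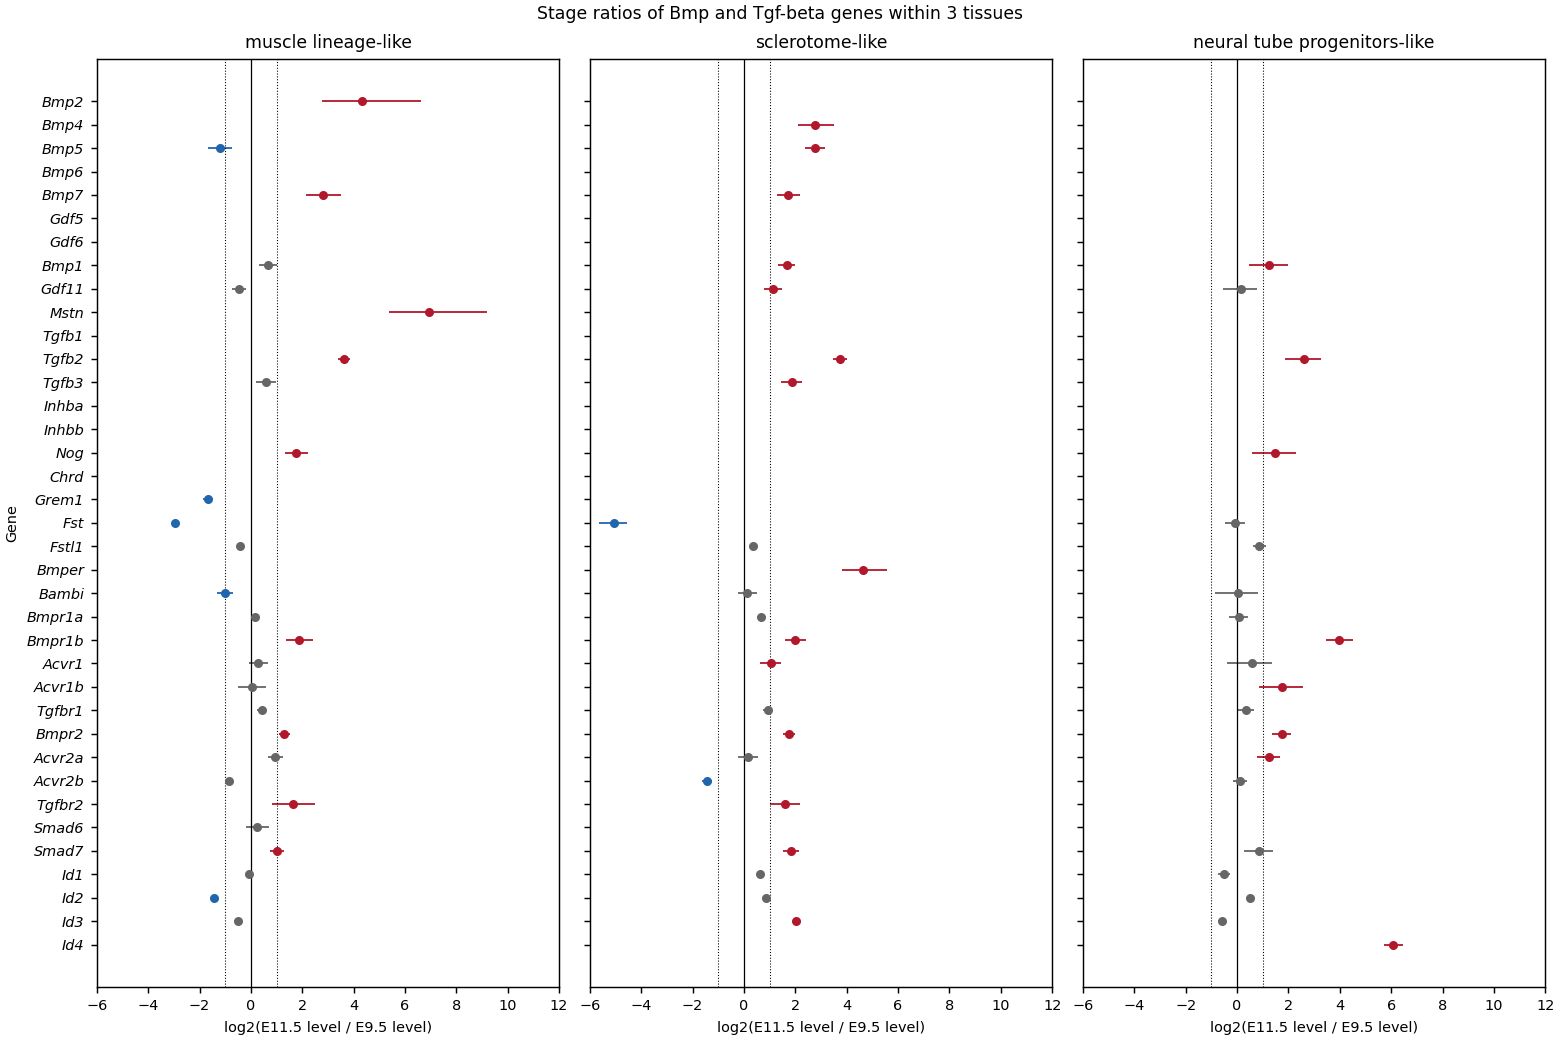
Log2 ratio of the E11.5 level over the E9.5 level for each member with at least 100 UMIs, within muscle-like, sclerotome-like and neural tube progenitor-like cells; points are ratios, bars exact 95% counting intervals, dotted lines 2-fold, red over 2-fold higher and blue over 2-fold lower. Fst lies at -2.95 in muscle-like and -5.07 in sclerotome-like cells and at -0.07 in the neural tube progenitors.

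Of the type I receptors, Bmpr1b differed between stages in each of these tissues. In muscle-like cells 27 members could be compared, with 9 higher and 5 lower at E11.5 (13.8% and 4.23% of all genes). In sclerotome-like cells 14 of 23 were higher and 2 lower (10.3% and 3.32%), and in neural tube progenitor-like cells 8 of 20 were higher and 0 lower (11.0% and 5.99%). Bmpr1b, a type I receptor of Bmp and Gdf5 known from cartilage and spinal cord, was over 2-fold higher in all of these: 12.4 against 3.39 UPM in muscle-like cells (1.87, 1.37 to 2.41), 22.7 against 5.69 in sclerotome-like cells (2.00, 1.59 to 2.42) and 42.0 against 2.66 in neural tube progenitors (3.98, 3.46 to 4.49). Bmpr1a, the broadly expressed Bmp receptor, ranged from 28.8 to 69.1 UPM over the E9.5 tissues other than red blood cells and from 30.1 to 91.2 over those of E11.5. Acvr1, shared by Bmp and activin ligands, was at 15.9 against 7.71 UPM in sclerotome-like cells (1.04, 0.63 to 1.45). Tgfbr1 and Acvr1b remained within 2-fold in muscle-like cells, with log2 ratios of 0.42 and 0.04. Acvr1b was at 16.7 UPM in the E11.5 neuron-like cells, its highest tissue, and at 14.5 in the surface ectoderm-like cells, with overlapping intervals.

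Among the type II receptors, Bmpr2, Tgfbr2 and Acvr2a were over 2-fold higher at E11.5 in some tissues, and Acvr2b was over 2-fold lower in some. Bmpr2 was at 46.9 against 19.1 UPM in muscle-like cells (1.29, 1.08 to 1.52) and at 61.2 against 18.4 in sclerotome-like cells (1.73, 1.50 to 1.97), and it passed 2-fold in 8 of the 9 tissues. Tgfbr2, the ligand-binding Tgf-beta receptor, was highest in endothelium-like cells at both stages, at 21.6 and 66.0 UPM, and was at 4.36 against 1.41 in muscle-like cells (1.63, 0.84 to 2.51). Acvr2b, which binds Mstn, Gdf11 and activins, was lower at E11.5 in sclerotome-like cells (37.2 against 101 UPM; -1.43, -1.64 to -1.24) and at 58.3 against 104 in muscle-like cells (-0.84, -0.95 to -0.73). In the neural tube progenitors it was at 100 and 92.6 UPM, and in neuron-like cells at 95.9 and 102. Acvr2a, the related receptor, was at 22.9 against 11.9 UPM in muscle-like cells (0.94, 0.66 to 1.23). It was over 2-fold higher at E11.5 in neural tube progenitor-like, neuron-like and neural crest-like cells.

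Among the antagonists, Fst and Grem1 differed by tissue and by stage. Follistatin (Fst), which binds activins and Mstn, was at 232 UPM in muscle-like, 157 in sclerotome-like and 137 in newly formed somite-like cells at E9.5, and at 14.7 to 45.0 in the other tissues. At E11.5 it was at 30.1 in muscle-like cells (-2.95, -3.07 to -2.83) and 4.69 in sclerotome-like cells (-5.07, -5.63 to -4.56). Neural tube progenitor-like cells held it at 45.0 and 42.7 UPM (-0.07, -0.48 to 0.31), which made them its highest tissue at E11.5. Gremlin (Grem1), a secreted Bmp antagonist, was at 48.7 UPM in muscle-like cells at E9.5, with the next tissue, the roof plate, at 16.9, and at 15.5 in muscle-like cells at E11.5 (-1.65, -1.85 to -1.46). Its highest tissue at E11.5 was the lateral plate-like class, at 39.5 UPM against 7.34 at E9.5 (2.43, 1.94 to 2.94).

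Noggin (Nog), which sequesters Bmp ligands, was at 62.1 UPM in E9.5 roof plate-like cells, with floor plate and notochord-like cells next at 11.9. It was at 16.0 UPM in the E11.5 muscle-like and 15.5 in the cartilage precursor-like cells, whose intervals overlapped, and muscle-like cells of E9.5 had 4.71 (1.76, 1.33 to 2.22). Bmper, the vertebrate relative of crossveinless, was at 25.1 UPM in E11.5 sclerotome-like against 1.01 in E9.5 sclerotome-like cells (4.63, 3.82 to 5.57), and at 48.0 in cartilage precursor-like cells. Chordin (Chrd), another Bmp antagonist, was at 0.44 UPM over all cells of E9.5 and 2.87 over those of E11.5 (2.69, 2.30 to 3.10). Fstl1 was at 147 and 108 UPM in muscle-like cells, within 2-fold. The pseudoreceptor Bambi, which lacks a kinase, was highest in lateral plate-like cells at E9.5 (104 UPM, endothelium-like 86.6) and in endothelium-like cells at E11.5 (174). In muscle-like cells it was at 15.2 and 7.48 UPM (-1.02, -1.34 to -0.71), a ratio that fell inside 2-fold under 4 of the alternative settings.

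Of the feedback genes, Smad7 was at 28.3 against 14.0 UPM in muscle-like cells (1.01, 0.75 to 1.27) and at 38.6 against 10.8 in sclerotome-like cells (1.83, 1.53 to 2.14). The muscle ratio was at the 2-fold line and passed below it in 3 alternatives. Smad6, the inhibitor specific to Bmp signals, was at 5.75 and 6.86 UPM in muscle-like cells.

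Id genes did not move as 1 group. Id3 was at 813 against 199 UPM in sclerotome-like cells (2.03, 1.96 to 2.10), where Id1 (0.61) and Id2 (0.87) were within 2-fold, and at 437 against 614 in muscle-like cells (-0.49, -0.53 to -0.44). Id2 was at 449 UPM in E9.5 and 164 in E11.5 muscle-like cells (-1.45, -1.51 to -1.39). At E9.5 the roof plate-like cells had the highest Id1 (334 UPM), Id2 (578) and Id3 (1431). Their Bmp-binding antagonist Nog was likewise highest there, and among 17 members compared between roof plate-like and neural tube progenitor-like cells Nog (4.06, 3.62 to 4.49), Id2 (2.01, 1.90 to 2.12) and Id3 (1.44, 1.37 to 1.51) were higher and 0 were lower (2.79% and 3.91% of all genes). At E11.5 the cartilage precursor-like cells had the highest levels of the same genes, with Id1 at 326, Id2 at 460 and Id3 at 1196 UPM. Against the sclerotome-like cells of that library, Id2 (1.13, 1.02 to 1.24) and Bambi (1.31, 0.90 to 1.73) were over 2-fold higher in these cells, 2 of 23 members, with 0 lower (0.541% and 0.554% of all genes).

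Id4, the Id gene of neural progenitors, was at 2.87 UPM in neural tube progenitor-like cells of E9.5 and at 193 in those of E11.5 (6.07, 5.71 to 6.44). Neuron-like cells had 1 UMI of it at E9.5 and 36.0 UPM at E11.5. Intermediate mesoderm-like cells showed the reverse, with 21.0 UPM in the E9.5 library and 1.36 in that of E11.5, the latter from 2 UMIs (-3.95, -7.01 to -2.06).

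In the other tissues fewer members had enough UMIs. Lateral plate-like cells had 4 of 20 higher at E11.5 (Bmp1, Tgfb2, Grem1 and Fstl1) and 1 lower (Acvr2b), against 9.61% and 5.01% of all genes. Intermediate mesoderm-like cells had 4 of 16 higher (Tgfb2, Fstl1, Bmpr2 and Smad7) and 3 lower (Fst, Acvr2b and Id4; 6.31% and 4.23%). Neuron-like cells had 5 of 16 higher (Tgfb2, Acvr1b, Bmpr2, Acvr2a and Id4) and 2 lower (Fst and Id1; 16.7% and 5.08%). Neural crest-like cells had 7 of 17 higher (Bmp1, Tgfb2, Acvr1, Bmpr2, Acvr2a, Smad7 and Id3) and Fst lower (10.7% and 3.75%). In endothelium-like cells Tgfb2, Bambi, Bmpr2, Tgfbr2 and Smad7 were higher, 5 of 16, and Fst lower (5.76% and 2.08%). Surface ectoderm-like cells had Tgfb2 and Bmpr2 higher and Gdf11 and Id2 lower of 15 (6.85% and 3.87%). Fst was thus past 2-fold lower in each of these except the lateral plate-like cells (-0.80) and the ectoderm-like cells, where it had under 100 UMIs. Red blood cell-like cells had 6 members to compare, 0 higher and Acvr2b lower (4.1% and 27.3%).

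Newly formed somite-like cells of E9.5 differed from muscle-like cells in 2 of 16 members, with 0 higher (1.11% and 2.05% of all genes). Grem1 (-1.75) and Id2 (-1.35) were the lower ones.

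Muscle and sclerotome, the derivatives of 1 somite, were set side by side in each library. At E9.5, 0 of 21 members were over 2-fold higher in sclerotome-like cells and 3 were lower (1.65% of all genes in each direction), namely Grem1 (2.10 against 48.7 UPM; -4.53, -5.15 to -3.98), Id2 (116 against 449; -1.96, -2.04 to -1.87) and Id3 (199 against 614; -1.62, -1.69 to -1.56). At E11.5, 8 of 30 were higher and 4 lower (5.35% and 7.4%). The higher ones were Bmp4, Bmp5, Bmp1, Tgfb3, Fstl1, Bmper, Tgfbr2 and Id4, and the lower ones Mstn, Nog, Grem1 and Fst. Id2 and Id3 were no longer lower in the sclerotome-like cells, at log2 ratios of 0.36 and 0.89. Tendon progenitor-like cells of E11.5 had 0 of 22 members over 2-fold higher than sclerotome-like cells and 2 lower (1.63% and 1.92% of all genes). The lower ones were Bmper at 5.88 UPM (-2.09, -2.84 to -1.42) and Bmpr1b at 7.06 (-1.69, -2.37 to -1.06). Within 2-fold were Id1 (-0.57, -0.73 to -0.41), Id3 (-0.81, -0.89 to -0.72) and Id2 (0.09, -0.04 to 0.22), and Id4 had under 100 UMIs.

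Muscle-like cells were then ordered by their regulators. Pax3/Pax7 progenitors had Pax3 or Pax7 and none of Myf5, Myod1 or Myog, and numbered 259 in the E9.5 and 83 in the E11.5 library. Myf5 cells numbered 96 and 253, and at E11.5 there were also 190 Myod1 cells, 291 Myog cells and 286 sarcomere cells. Sarcomere cells had at least 2 UMIs of Myog, like Myog cells, and at least 50 UMIs summed over 7 sarcomere genes. The E9.5 library had too few Myog (17) and sarcomere (6) cells.

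Within the E9.5 progenitors, Grem1 and Id2 were concentrated in cells with Lbx1, the homeobox gene of precursors that migrate from the hypaxial dermomyotome. This split was chosen after values were seen. Lbx1 was also a marker in the muscle list of the gate, so it helped cells into the muscle-like class. The part of the gate in this split and in the Lbx1 shares below was not tested. Grem1 was at 139 UPM (123 to 156) in the 117 cells with an Lbx1 UMI, at 34.4 (27.7 to 42.2) in the 142 without, and at 19.4 (14.0 to 26.2) in Myf5 cells. Id2 followed the same order, at 938 (897 to 981), 359 (337 to 383) and 290 (267 to 313) UPM. Of 9 members with at least 100 UMIs, these were the 2 over 2-fold higher in the Lbx1 cells, by log2 ratios of 2.01 (1.67 to 2.37) and 1.38 (1.27 to 1.50), and 0 were lower (0.434% of all genes in each direction). The other 7 lay between 0.00 for Fstl1 and 0.60 for Id3. Median depth was 15215 UMIs in cells with Lbx1 and 16368.5 in those without, and Scrublet called 1.71% and 2.82% of them doublets. Tgfb2 had 9 UMIs in cells with Lbx1 and 37 in those without, at 4.37 and 14.0 UPM, with Myf5 cells at 21.3.

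**Figure D3:**
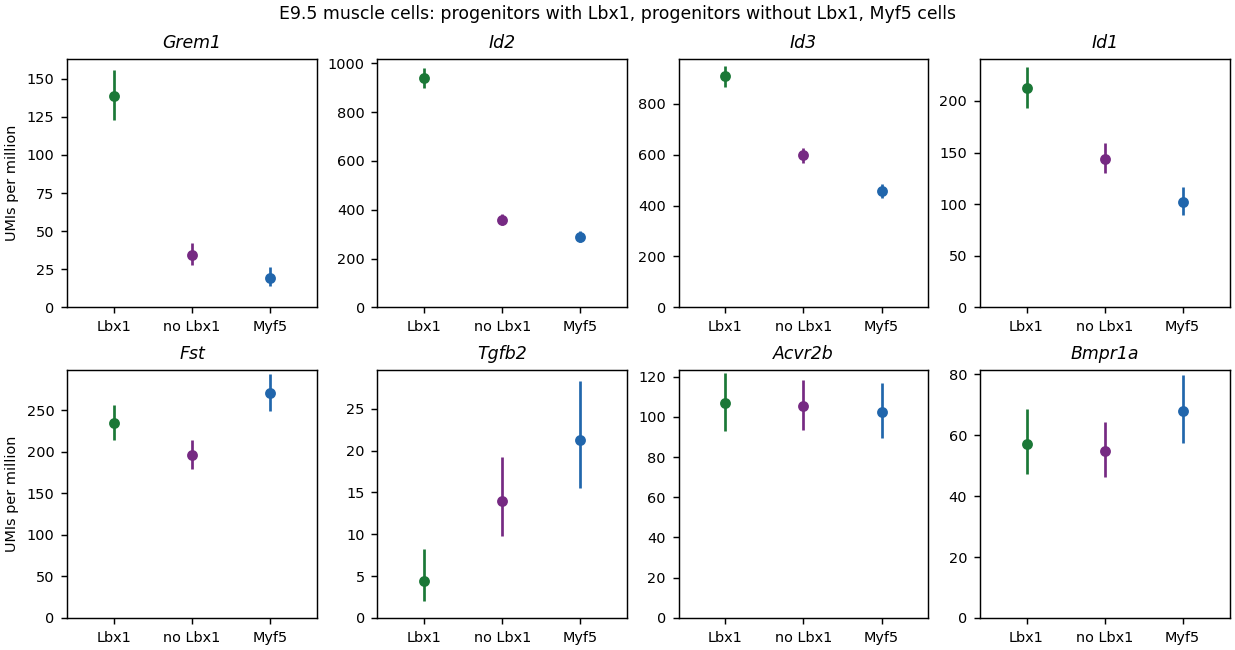
Levels of 8 members in E9.5 Pax3/Pax7 progenitors with an Lbx1 UMI (117 cells), those without (142 cells) and Myf5 cells (96 cells), in UPM with exact 95% Poisson bars. Grem1 stood at 139, 34.4 and 19.4 UPM from left to right, while Acvr2b and Bmpr1a were nearly level.

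The same step was then compared between stages. Among Pax3/Pax7 progenitors 13 members could be compared, of which Tgfb2, Bmpr2 and Smad7 were higher at E11.5 and Grem1, Fst, Id2 and Id3 lower (5.53% and 4.99% of all genes). Tgfb2 was at 185 against 9.77 UPM (4.24, 3.78 to 4.73) and Fst at 9.16 against 213 (-4.54, -5.50 to -3.73). Fst was thus lower in progenitors and in Myf5 cells alike, at 9.82 against 270 UPM in the latter (-4.78, -5.25 to -4.34). Id2 was at 183 against 613 UPM (-1.74, -1.94 to -1.55) and Id3 at 298 against 732 (-1.30, -1.45 to -1.14) in progenitors. Lbx1 was found in 117 of the 259 progenitors of E9.5 and in 5 of the 83 of E11.5. In progenitors without Lbx1, Grem1 stood at 34.4 UPM in the earlier and 35.4 in the later library. Id2 stood at 359 and 161 UPM, and Id3 at 597 and 301, just within 2-fold. Without the Lbx1 cells Grem1 was thus nearly level, while Id2 and Id3 were still lower at E11.5. The E11.5 progenitors also had the largest doublet share of the 5 steps, 14.5% by Scrublet against 4.47% to 6.29%, and their summed dermal marker level was 504 UPM, with 5 of 6 markers detected and Dpt at 0, against 125 to 259 in the later steps. Summed markers of intermediate mesoderm (121 UPM), neural tube (55.7) and roof plate (88.5) were also above the later steps. Those steps had 28.9 to 46.8, 8.88 to 19.7 and 29.6 to 45.9. Tendon markers summed to 80.9 UPM in the progenitors, against 21.3 to 54.2 in the later steps. The lists of endothelium, red blood cells and white blood cells were above the later steps by smaller amounts. Some other lists, such as those of sclerotome and neural crest, lay within the range of the later steps. The part of these progenitors in the results was not tested.

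Among Myf5 cells 15 members could be compared, and Mstn, Tgfb2, Nog, Bmpr2 and Smad7 were higher at E11.5 and Fst lower (7.58% and 3.18%). Mstn had 0 UMIs in the 96 E9.5 cells and 23.6 UPM at E11.5, at least 17.0-fold higher when 3 UMIs are taken as the floor at E9.5. Nog was at 22.0 against 3.70 UPM (2.58, 1.54 to 3.83). Grem1 was at 27.1 against 19.4 UPM in these cells (0.48, -0.04 to 1.02), where the muscle-like class as a whole had it lower at E11.5. Id1 and Id3 were within 2-fold, at log2 ratios of 0.76 and 0.62, with the higher level at E11.5.

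**Figure D4:**
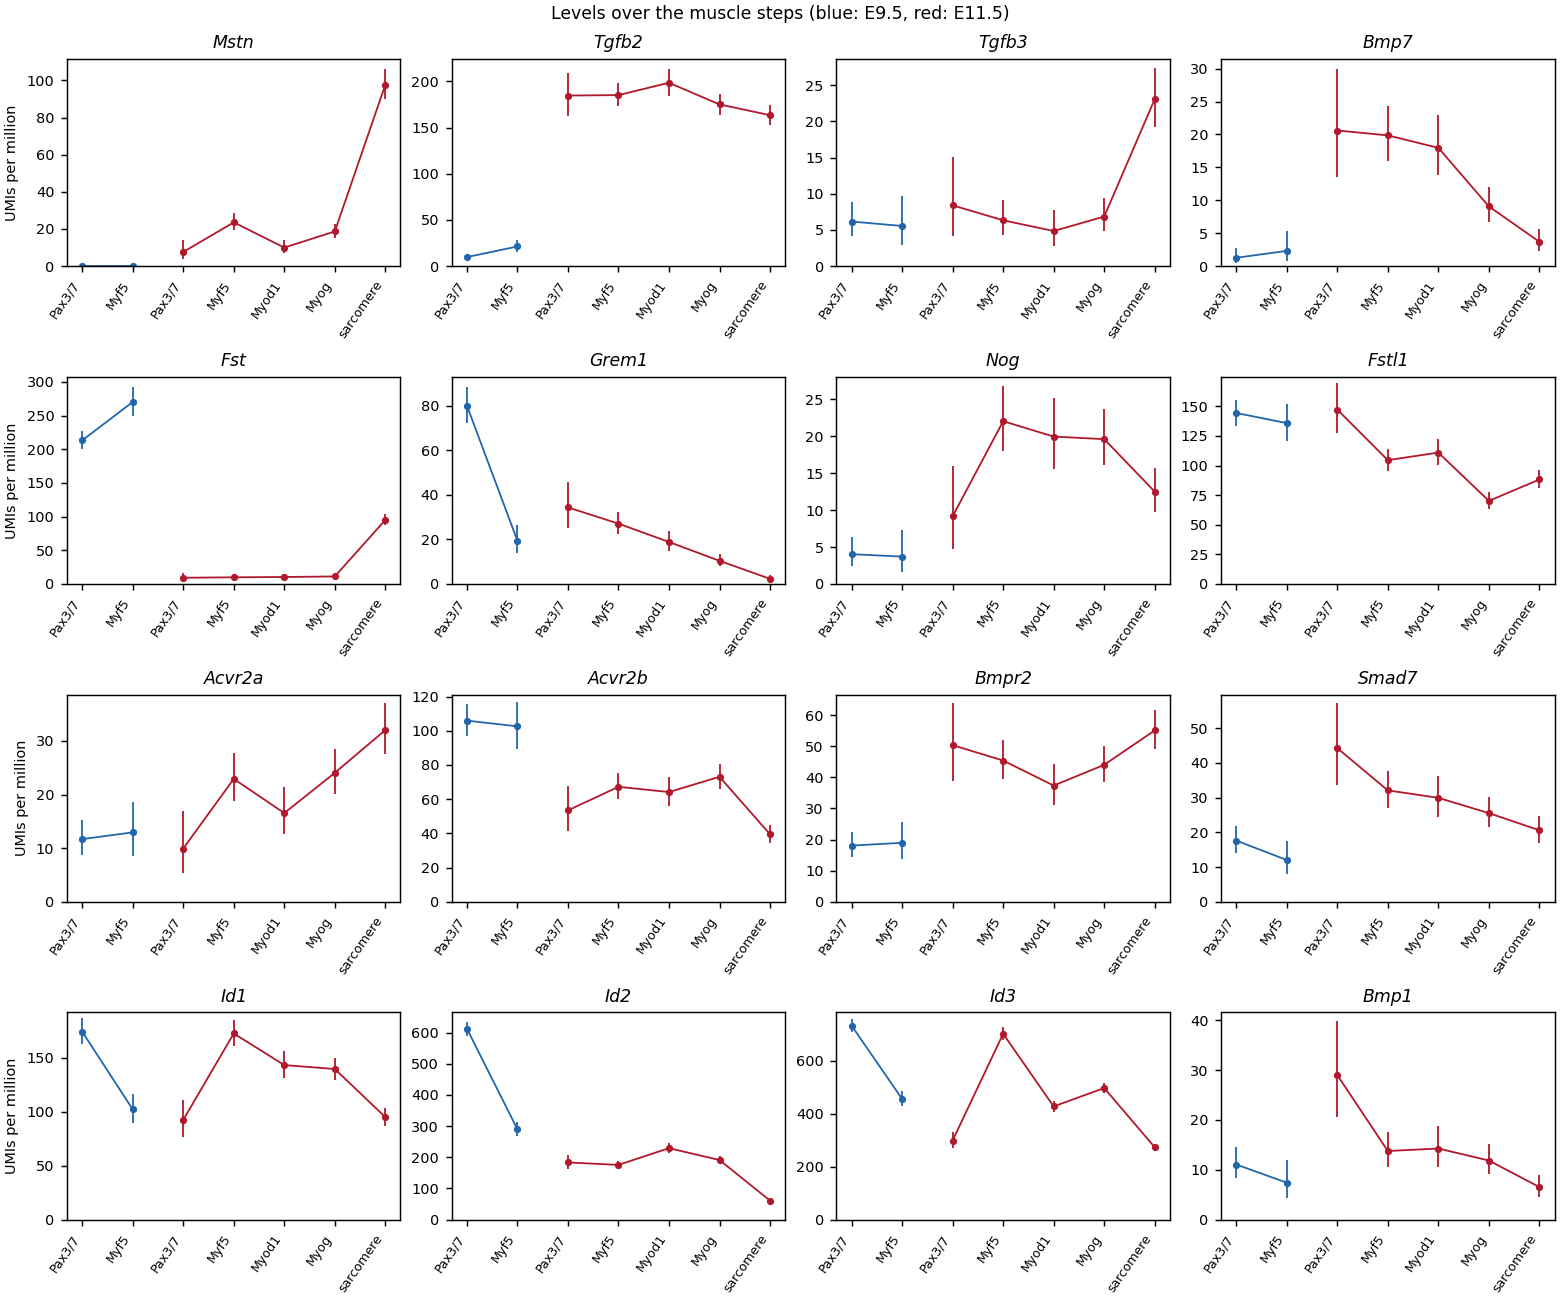
Levels of 16 members over the muscle steps, with E9.5 in blue (Pax3/Pax7 progenitors, Myf5 cells) and E11.5 in red (Pax3/Pax7 progenitors, Myf5, Myod1, Myog and sarcomere cells), in UMIs per 1000000 UMIs of the step with exact 95% Poisson bars. Among the E11.5 steps, Mstn and Fst are highest at the sarcomere step, at 97.7 and 95.1 UPM, and Grem1 and Id2 lowest, at 2.29 and 60.6. Fst is higher at both E9.5 steps, at 213 UPM in progenitors and 270 in Myf5 cells.

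Over the E11.5 steps, Mstn and its binding protein Fst were both highest in sarcomere cells. Mstn was at 7.63 UPM in progenitors, 23.6 in Myf5, 9.98 in Myod1, 18.7 in Myog and 97.7 in sarcomere cells. Fst was at 9.16, 9.82, 10.3, 11.1 and 95.1 UPM in the same order, flat until the last step. Of the sarcomere cells, 59.1% had an Mstn UMI and 44.8% an Fst UMI, and 31.9% and 29.3% after thinning each cell to 5000 UMIs. Surface ectoderm-like cells, which should lack Mstn, had it in 0.602% of cells, with a median of 12248.5 UMIs against 18321 in sarcomere cells, and 6.02% of them had Fst.

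Tgfb3 was at 8.39, 6.33, 4.85, 6.85 and 23.1 UPM over the 5 steps, and Acvr2a, the other receptor of Mstn, at 9.92, 22.9, 16.5, 24.1 and 32.0. Sarcomere cells over progenitors gave 14 members to compare, with Mstn (3.68, 2.79 to 4.75), Fst (3.38, 2.56 to 4.34), Acvr2a (1.69, 0.88 to 2.63) and Tgfb3 (1.46, 0.57 to 2.50) higher and Id2 (-1.60, -1.84 to -1.35) and Smad7 (-1.10, -1.57 to -0.62) lower (11.8% and 10.0% of all genes). In progenitors Mstn, Fst, Acvr2a and Tgfb3 had 10, 12, 13 and 11 UMIs, so they passed the limit of 100 UMIs through the sarcomere cells. Grem1, Bmp7 and Bmp1, with 45, 27 and 38 UMIs in progenitors and lower levels in sarcomere cells, stayed under that limit and were not counted. The counts of higher and lower members thus lean toward the higher ones. Against the larger Myf5 step, 3 of 20 were higher and 5 lower (10.2% and 10.5%), the lower ones including Grem1, Bmp7 and Bmp1. Against Myog cells, Mstn (2.39, 2.08 to 2.71), Tgfb3 (1.75, 1.22 to 2.32) and Fst (3.10, 2.71 to 3.51) were higher and Id2 lower (-1.66, -1.84 to -1.48), 4 of 18 members (9.18% higher and 6.86% lower). Myog cells with 25 to 99 sarcomere UMIs, near the limit of 50, numbered 227.

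Grem1, Bmp7 and Smad7 had a lower point value at each later step. For each gene the counting intervals of progenitors and Myf5 cells overlapped, and so did those of Myf5 and Myod1 cells. Grem1 was at 34.3, 27.1, 18.8, 10.4 and 2.29 UPM, Bmp7 at 20.6, 19.9, 18.0, 9.07 and 3.70, and Smad7 at 44.3, 32.1, 29.9, 25.5 and 20.6. Id2 was at 183, 175, 229 and 191 UPM over the first 4 steps, with Myod1 cells above Myf5 cells by their counting intervals, and at 60.6 in sarcomere cells. Id3 was highest in Myf5 cells, at 298, 702, 427, 497 and 273 UPM, and Id1 at 92.3, 172, 143, 140 and 94.9, so the Id genes had different step profiles. From progenitors to Myf5 cells, Id3 (1.23, 1.08 to 1.39), Mstn (1.63, 0.69 to 2.73), Nog (1.27, 0.40 to 2.27) and Acvr2a (1.21, 0.37 to 2.16) were over 2-fold higher and Bmp1 (-1.08, -1.68 to -0.46) lower, 5 of 16 members (0.715% and 0.779% of all genes). These E11.5 progenitors are the 83 cells with the raised doublet share and non-muscle markers given above. Their Mstn rests on 10 UMIs in 6 cells, and their part in these ratios was not tested. From progenitors to Myf5 cells at E9.5, 0 were higher and 2 lower of 13 (0.553% and 0.505%), Grem1 (-2.04, -2.54 to -1.58) and Id2 (-1.08, -1.21 to -0.96). When progenitors without Lbx1 were the reference, 0 of 9 members passed 2-fold in either direction (0.356% and 0.0938%). Over the 5 steps Tgfb2 lay between 163 and 198 UPM, Bmpr2 between 37.4 and 55.1 and Tgfbr1 between 46.3 and 58.5, each within 2-fold.

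Other genes of the pathway were taken from a fixed list of 60, which holds Smads, further ligands and antagonists, co-receptors and response genes. In muscle-like cells 29 had at least 100 UMIs, 12 were over 2-fold higher at E11.5 and 2 lower, beside the 13.8% and 4.23% of all genes. Past 4-fold were Pmepa1, a Tgf-beta response gene (22.4 against 0.57 UPM; 5.30, 4.17 to 6.76), Inha (10.1 against 0.47), the co-receptor Hfe2 (21.2 against 1.23), the antagonist Nbl1 (27.7 against 3.39) and Gdf10 (4.03 against 0.66), and in the other direction the Bmp target Msx1 (1.45 against 14.1; -3.28, -3.86 to -2.74). Pmepa1 was past 4-fold in 6 further tissues, among them sclerotome-like (50.0 against 0.62 UPM) and neural tube progenitor-like cells (112 against 1.18). Over the E11.5 steps, Hfe2 was at 83.8 UPM in sarcomere cells and had 0 UMIs in progenitors, at least 36.6-fold higher with 3 UMIs as the floor, and Inha was at 32.7 against 3.82 UPM (3.10, 1.85 to 4.74). In all cells, where the mix of tissues differed between the libraries, 20 of 44 were higher and 4 lower (20.6% and 4.72% of all genes).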

How the data were processed

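Inter-limb somite cells of wild type C57BL/6 embryos were profiled in 1 pooled 10x Genomics library per stage. Per the labels, the authors used Cell Ranger 3.0.1 and mm10; the deposited values are raw UMI counts per gene and barcode. Cells with 200 to under 6500 genes and under 15% mitochondrial UMIs were kept, which removed 270 and 572 barcodes. Each detected marker was weighted by -log10 of the share of cells with it; a class needed a sum of 2, a lead of 0.7 and 2 distinct markers, thresholds set after the data were seen. Steps needed 2 UMIs of Myf5, Myod1 or Myog, and 169 and 236 muscle cells fell in no step. Scrublet (scanpy 1.11.5), run on kept cells, called 507 and 331 doublets, which stayed in unless an alternative says otherwise. UMIs were summed per class; intervals of counts and of ratios of 2 Poisson counts were exact (scipy 1.17.1). With 1 library per stage there was no test. The ratio step was checked on simulated counts.

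The members and lists were chosen with earlier results of these data known. A member was described singly where it had at least 100 UMIs and passed 2-fold between stages or over the E11.5 steps, or had a tissue level at least 4 times the median tissue; pathway genes were named past 4-fold. Alternatives varied scaling, cell filter, doublets, gate, step limits, UMI minimum and depth. Red blood cell markers summed to 413291 UPM at E11.5, so other genes of that class are diluted. Promoters of 11 members were not used here.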

Additional observations from a re-analysis of the deposited data

Results flagged for a closer look

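Bambi, Bmp5, Gdf11, Grem1 and Id4 passed 2-fold between stages in opposite directions in different tissues, and these differences between tissues were not tested, since each stage is 1 library. Grem1 had a log2 ratio (E11.5 over E9.5) of 2.43 in lateral plate-like and -1.65 in muscle-like cells. Within muscle steps, Grem1 was at 34.4 UPM at E9.5 and 35.4 at E11.5 in progenitors without Lbx1, and at 19.4 and 27.1 in Myf5 cells. The E9.5 progenitors with Lbx1 had 139 UPM. Myog and sarcomere cells, the E11.5 steps with the lowest Grem1, were too few at E9.5 to compare. The parts of the Lbx1 cells and of the mix of steps in the ratio of muscle-like cells were not tested. Bmp5 had 2.77 in sclerotome-like and -1.22 in muscle-like cells. Id4 had 6.07 in neural tube progenitor-like, 6.34 in neuron-like and -3.95 in intermediate mesoderm-like cells. The neuron ratio rests on 1 UMI at E9.5 and that of the intermediate mesoderm on 2 UMIs at E11.5. Lateral plate-like and intermediate mesoderm-like cells had fewer of their own markers among their leading genes at E11.5. The part of this in their ratios was not tested. Bambi had 1.01 in endothelium-like and -1.02 in muscle-like cells, and Gdf11 1.12 in sclerotome-like and -1.13 in surface ectoderm-like cells, all near the 2-fold line.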

How the results depend on the processing

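No paired analysis was possible because each stage is 1 library with no replicate number. For 65 member ratios past 2-fold, 534 recomputed values gave 0 reversals, 17 no longer past 2-fold and 34 outside the counting interval. These 65 came from the stage ratios of all cells and of muscle-like, sclerotome-like and neural tube progenitor-like cells, and from sarcomere cells over progenitors at E11.5. Ratios of the other comparisons and tissues were not among them. Counts of members past 2-fold moved by over 1.5 times where fewer genes had enough UMIs: thinning cells to 5000 UMIs gave 7 instead of 14 in muscle-like, 8 instead of 16 in sclerotome-like and 4 instead of 8 in neural tube progenitor-like cells, and 7 instead of 14 for the other pathway genes in muscle. A minimum of 500 UMIs gave 7, 5, 1 and 6 for the same results, and 3 instead of 6 over the muscle steps, where a minimum of 20 UMIs gave 12. Tissues standing apart went from 14 to 7 at E9.5 and from 15 to 7 at E11.5 after thinning, with the same highest tissue for 22 of 25 and 27 of 31 members. In muscle-like cells, Bambi was at -0.53 and Smad7 at 0.64 after thinning; in all cells, Acvr1 and Smad7 were at 0.81 and 0.83 after centring on the median gene. Tgfb3 over the muscle steps was at 0.92 after thinning. Taking Myf5 cells as the first step, chosen after seeing the data, gave 8 members, 3 higher and 5 lower. Genes under 100 UMIs over both classes, such as Bmp4 in muscle-like cells with 5 and 80, were not called at this depth, and the spread between embryos cannot be given.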

Other observations

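At E9.5, 20 pathway genes outside the 37 could be compared between roof plate-like and neural tube progenitor-like cells. In the roof plate-like cells 3 were over 2-fold higher and 0 lower (2.79% and 3.91% of all genes). Msx2, a homeobox target of Bmp, was at 61.4 UPM there and at 3.11 in neural tube progenitor-like cells (log2 ratio 4.30, 3.85 to 4.75), Msx1 at 440 against 53.3 (3.05, 2.90 to 3.18), and the ligand Gdf10 at 26.1 against 6.43 (2.02, 1.45 to 2.55). In E9.5 progenitors with Lbx1, Msx1 was at 30.6 UPM (23.5 to 39.1) and in those without at 14.7 (10.5 to 20.1).

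In the E11.5 lateral plate-like cells, Gdf10, the antagonist Sostdc1 and Nbl1 were at 59.4, 58.2 and 68.1 UPM, against 0.15, 0.31 and 1.22 at E9.5, from 1, 2 and 8 UMIs. Bmp3, an antagonistic ligand, was at 25.5 UPM in E9.5 and 2.73 in E11.5 sclerotome-like cells (-3.23, -4.00 to -2.55). Chrdl1, a Chordin relative, was at 22.9 UPM in E11.5 Myf5 cells and at 1.94 in sarcomere cells (-3.56, -4.61 to -2.67).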
